A study of Homo sapiens with 12 samples.

Results

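HOX genes were examined as the genes of the HOXA, HOXB, HOXC and HOXD clusters, taken by family membership. Of 38 members listed, 28 had at least 1 probe set that the platform annotation pairs with that single gene symbol, over 44 probe sets and among 19775 genes measured. The other 10, which are HOXA3, HOXA4, HOXA5, HOXA6, HOXA7, HOXA9, HOXA10, HOXA11, HOXA13 and HOXD3, were not analysed here. The HOXB cluster was complete in this set, with 10 genes on 19 probe sets, while HOXC had 9 genes, HOXD had 8 and HOXA had HOXA2 alone.

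Expression was measured on 12 Affymetrix arrays in 4 groups of 3, all from a human colorectal carcinoma background grown in DMEM with serum and L-glutamine. HCT116 is a colorectal carcinoma line that carries an oncogenic RAS allele, and its control cells were given vehicle or 25 ng/ml doxycycline and taken on day 3. The study gave doxycycline or vehicle to HCT116 cells that stably carry inducible hairpin RNA vectors, and it names a hairpin control. Labels of the control arrays used here state no vector, so it is not known whether these cells carry one. Hke3 and Hkh-2 are derivatives of HCT116, each a single clone, in which that allele was removed by homologous recombination. The study's texts differ on whether the allele was deleted or replaced by a wild-type copy. They also describe an untreated parental culture, while the control arrays used here are labelled vehicle, and do not say whether the same cells are meant. No label states if the 3 arrays of a group stem from separate cultures, so p-values measure the spread between these arrays, which may be technical. Because a clone and its genotype come together, effects of the allele and of the clone cannot be told apart, and neither can fewer cells that express a gene and less RNA per cell. Labels of the Hke3 and Hkh-2 arrays give no vehicle, no vector and no day. Effects of treatment, of time in culture and of any vector in the control cells therefore cannot be told apart from those of the line either.

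HOX genes encode homeodomain transcription factors that set position along the body axis in the embryo, and in adult gut epithelium some remain active. They sit side by side in each cluster, in an order that follows the axis: genes of low number at the end transcribed earliest and most anteriorly, genes of high number at the other. HOX proteins bind DNA together with TALE cofactors such as the PBX and MEIS proteins, retinoic acid activates the low-numbered genes, and Polycomb and Trithorax complexes hold whole stretches of a cluster silent or active.

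The data bear on start sites only through the transcripts, but the sequences there show what kind of promoter these genes have. RefSeq promoters of 300 bases (250 before and 50 after the start, build GRCh38.p14) were given for 11 of the 28 members, 10 of them distinct in sequence because HOXC4 and HOXC5 share one. Those of HOXB1 and HOXD8 are shown because HOXB1, at one end of its cluster, was the only HOXB gene in the promoter table and HOXD8 is the member of the HOXD cluster that was measured above background, and the mature miR-10a-5p is shown because its gene lies inside the HOXB cluster between HOXB4 and HOXB5. The CG pairs of the promoters, the sites of DNA methylation, and the seed of the miRNA (bases 2 to 8) are in capitals.
HOXB1 promoter, chr17:48530962-48531261, minus strand: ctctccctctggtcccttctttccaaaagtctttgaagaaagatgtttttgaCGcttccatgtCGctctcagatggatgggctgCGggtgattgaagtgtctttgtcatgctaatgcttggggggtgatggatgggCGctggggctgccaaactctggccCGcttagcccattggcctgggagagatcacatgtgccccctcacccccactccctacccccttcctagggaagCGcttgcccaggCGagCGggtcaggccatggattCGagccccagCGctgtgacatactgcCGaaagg
HOXD8 promoter, chr2:176129455-176129754, plus strand: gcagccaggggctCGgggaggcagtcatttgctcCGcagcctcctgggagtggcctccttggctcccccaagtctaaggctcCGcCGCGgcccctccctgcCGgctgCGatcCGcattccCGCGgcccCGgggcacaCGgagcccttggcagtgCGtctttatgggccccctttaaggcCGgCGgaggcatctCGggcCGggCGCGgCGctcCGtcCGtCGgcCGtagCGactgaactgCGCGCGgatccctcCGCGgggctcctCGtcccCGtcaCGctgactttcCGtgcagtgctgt
hsa-miR-10a-5p, chr17:48579904-48579926, minus strand: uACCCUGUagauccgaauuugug
The HOXB1 window held 11 CG pairs, a number that 54.7% of all 35116 promoters of this length in the table reached. The HOXD8 window held 34, which 15.6% reached. Over the distinct HOX windows the number ran from 4 in HOXD4 to 36 in HOXD1 with a median of 21, against a median of 14 over all promoters. The HOXD1 and HOXD8 windows were thus alike in CG pairs. HOXD1 was near background on every array, and any link between CG pairs and transcript level was not tested.

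Values are the log2 intensities deposited by the authors, on which a difference of 1 is a 2-fold change, and for each gene the probe set brightest on average was read. A gene was called near background where all 4 group means were under 6, and levels of different genes are not set against each other because each probe set has its own brightness. By this rule 18 of the 28 HOX genes were kept and 10 were near background. All 10 HOXB genes were kept, with 7 of 9 HOXC genes, 1 of 8 HOXD genes and no HOXA gene. HOXA2, the highest and only measured member of its cluster, had group means between 3.51 and 3.80. Its arrays read 3.74, 3.44 and 3.89 for vehicle, 3.85, 3.47 and 3.94 for doxycycline, 3.60, 4.09 and 3.69 for Hke3, and 3.59, 3.44 and 3.49 for Hkh-2. Both HCT116 groups overlapped with each other and with each line. The Hke3 arrays were all above those of Hkh-2, the closest by a narrow margin, and the difference did not pass in the limma fit without the filter (adjusted p = 0.191). The 7 quiet HOXD genes, which are HOXD1, HOXD4, HOXD9, HOXD10, HOXD11, HOXD12 and HOXD13, had group means between 4.02 and 5.85. HOXC8 and HOXC12 were between 4.84 and 5.99. HOXC8 lay just inside the threshold with a highest group mean of 5.99, and HOXB2 (6.17) and HOXB1 (6.20) lay just outside it.

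**Figure D1:**
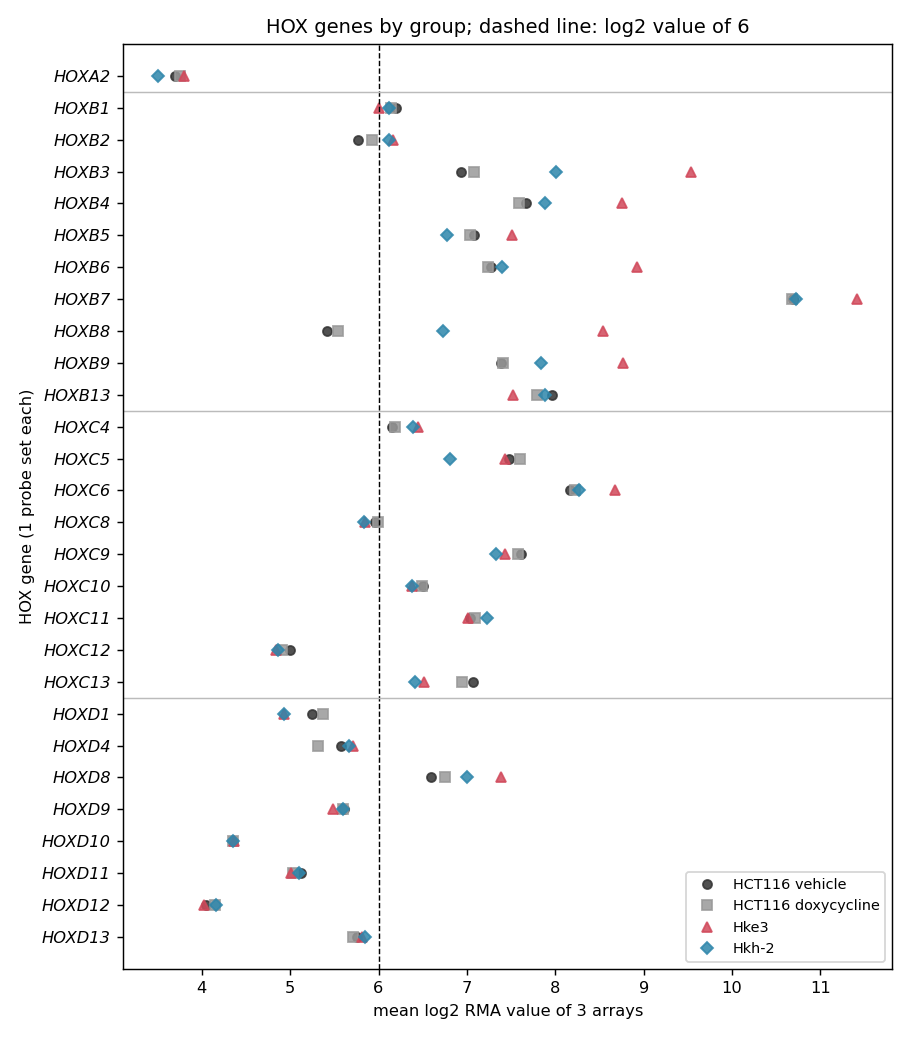
Mean log2 value of each of the 28 HOX genes (rows, by cluster) in the 4 groups (symbols), with the background level of 6 as a dashed line. In the HOXB cluster the Hke3 symbol lies to the right of the others for HOXB3 to HOXB9, while the quiet HOXD genes lie left of the line in all groups.

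HOXB genes from HOXB2 to HOXB9 were higher in Hke3 than in HCT116 vehicle cells, in an unbroken run of 8 HOX genes. HOXB13 was lower there and HOXB1 did not pass the test. The run includes HOXB2, which was close to background and whose call was lost in 3 alternative settings. Of the 18 kept HOX genes, 12 passed an adjusted p of 0.05 against Hke3 (limma, Benjamini-Hochberg over 12852 kept genes), where 47.8% of all kept genes did. By direction the called HOX genes were uneven, with 10 genes lower and 2 higher in HCT116, where 23.2% of all kept genes were lower and 24.6% higher. Since the filter keeps genes through the group in which they are high, the same fit was read without it: 13 of all 28 members were called, 10 lower and 3 higher, beside 31.7% of 19775 genes. The third gene higher in HCT116 there was HOXD1, whose means of 5.25 and 4.93 are both near background. The median difference was -0.04 over all 28 members and 0.05 over all genes without the filter, but it was -0.91 over the 10 HOXB genes. No gene of the HOXB cluster was removed by the filter, so that median is over the whole cluster.

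HOXB8, a regulator of myeloid progenitors and of thoracic patterning, was above background in the derived lines alone. Its arrays read 5.73, 5.17 and 5.35 for vehicle, 5.61, 5.83 and 5.20 for doxycycline, 8.51, 8.81 and 8.28 for Hke3, and 6.58, 6.65 and 6.97 for Hkh-2. The HCT116 arrays were all under the background level, those of Hkh-2 all above it, and those of Hke3 higher still, with no overlap between the 3 lines. HCT116 vehicle cells were lower than Hke3 by 3.12 ± 0.18 (SE, n = 3 arrays a group, adjusted p = 3.08e-08 by limma). Because the HCT116 mean of 5.42 is near background, this is given as at least 2.53.

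HOXB3, which acts in hindbrain patterning and in blood progenitors, followed the same order. Its arrays read 7.0, 6.56 and 7.25 for vehicle, 6.97, 7.01 and 7.28 for doxycycline, 9.90, 9.78 and 8.93 for Hke3, and 7.99, 8.03 and 7.99 for Hkh-2. Each line was apart from the next on all arrays, and the Hke3 arrays were the most spread, with 1 of them (8.93) below the other two. HCT116 was lower than Hke3 by 2.60 ± 0.22 (SE, adjusted p = 9.05e-07 by limma), and the difference was -2.71 without Hke3 replicate 3 and HCT116 vehicle replicate 2, the arrays that stood apart in the series.

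HOXB6, a neighbour within the cluster that is expressed in trunk mesoderm and fetal blood cells, was called where Hke3 was one side of the comparison. Its arrays read 7.32, 7.28 and 7.20 for vehicle, 7.23, 7.16 and 7.33 for doxycycline, 8.94, 8.95 and 8.87 for Hke3, and 7.53, 7.32 and 7.32 for Hkh-2. The Hke3 arrays lay in a narrow band far above all the others. HCT116 was lower than Hke3 by 1.65 ± 0.08 (SE, adjusted p = 3.97e-09 by limma). HOXB3, HOXB6 and HOXB8 were the 3 HOX genes past 1.5 in this comparison, where 1.94% of all kept genes were called and lower by more than 1.5.

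HOXB9, a thoracic patterning factor, read 7.54, 7.29 and 7.32 for vehicle, 7.43, 7.39 and 7.39 for doxycycline, 8.67, 8.57 and 9.06 for Hke3, and 7.87, 7.81 and 7.82 for Hkh-2. The 3 lines were again apart on every array, in the same order as for HOXB3 and HOXB8, and HCT116 was lower than Hke3 by 1.39 ± 0.11 (SE, adjusted p = 5.58e-07 by limma). HOXB4, best known for expanding blood stem cells, read 7.73, 7.68 and 7.58 for vehicle, 7.69, 7.54 and 7.53 for doxycycline, 8.80, 8.62 and 8.84 for Hke3, and 7.86, 7.81 and 7.96 for Hkh-2. Its Hke3 arrays stood clear of the rest, by 1.09 ± 0.08 from HCT116 (SE, adjusted p = 3.39e-07 by limma), while the Hkh-2 arrays were only just above those of HCT116.

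HOXB7, a gene linked to proliferation in several carcinomas, had the brightest probe set of the cluster. It read 10.66, 10.78 and 10.63 for vehicle, 10.72, 10.67 and 10.64 for doxycycline, 11.33, 11.33 and 11.60 for Hke3, and 10.70, 10.75 and 10.71 for Hkh-2. Hkh-2 fell within the HCT116 range and Hke3 lay above both, by 0.72 ± 0.08 from HCT116 (SE, adjusted p = 1.39e-05 by limma). HOXB5, which acts in neural crest of the gut, read 6.90, 7.19 and 7.16 for vehicle, 7.17, 6.93 and 6.99 for doxycycline, 7.55, 7.34 and 7.64 for Hke3, and 6.94, 6.71 and 6.66 for Hkh-2. HCT116 was lower than Hke3 by 0.43 ± 0.11 (SE, adjusted p = 0.00688 by limma).

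HOXB2, a hindbrain segment factor, read 5.70, 5.76 and 5.85 for vehicle, 6.02, 5.90 and 5.87 for doxycycline, 6.09, 5.95 and 6.46 for Hke3, and 6.16, 5.98 and 6.22 for Hkh-2. All its arrays were close to the background level, and the difference from Hke3 of 0.40 ± 0.12 (SE, adjusted p = 0.0137 by limma) comes to at least 0.17 once the HCT116 mean is set to that level. The call was lost without the 2 arrays that stood apart (adjusted p = 0.0518) and with the doxycycline arrays in place of vehicle (adjusted p = 0.117), and also with only the 2 compared groups in the fit (adjusted p = 0.0544). HOXB1, the first gene of the cluster, had group means between 6.00 and 6.20 and did not pass the test, with a difference from Hke3 of 0.20 (95% confidence interval -0.03 to 0.42).

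HOXB13, the most posterior gene of the cluster and a partner of the androgen receptor in prostate, went the other way. It read 7.95, 8.09 and 7.86 for vehicle, 7.81, 7.82 and 7.75 for doxycycline, 7.39, 7.61 and 7.56 for Hke3, and 7.90, 7.77 and 7.97 for Hkh-2. The Hke3 arrays were below all others, and HCT116 was higher than Hke3 by 0.45 ± 0.09 (SE, adjusted p = 9.89e-04 by limma). Its other probe set did not share this: the difference from Hke3 was -0.12 with an adjusted p of 0.437 in the limma fit over probe sets, and the mean of both probe sets missed the threshold (difference 0.17, adjusted p = 0.116).

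**Figure D2:**
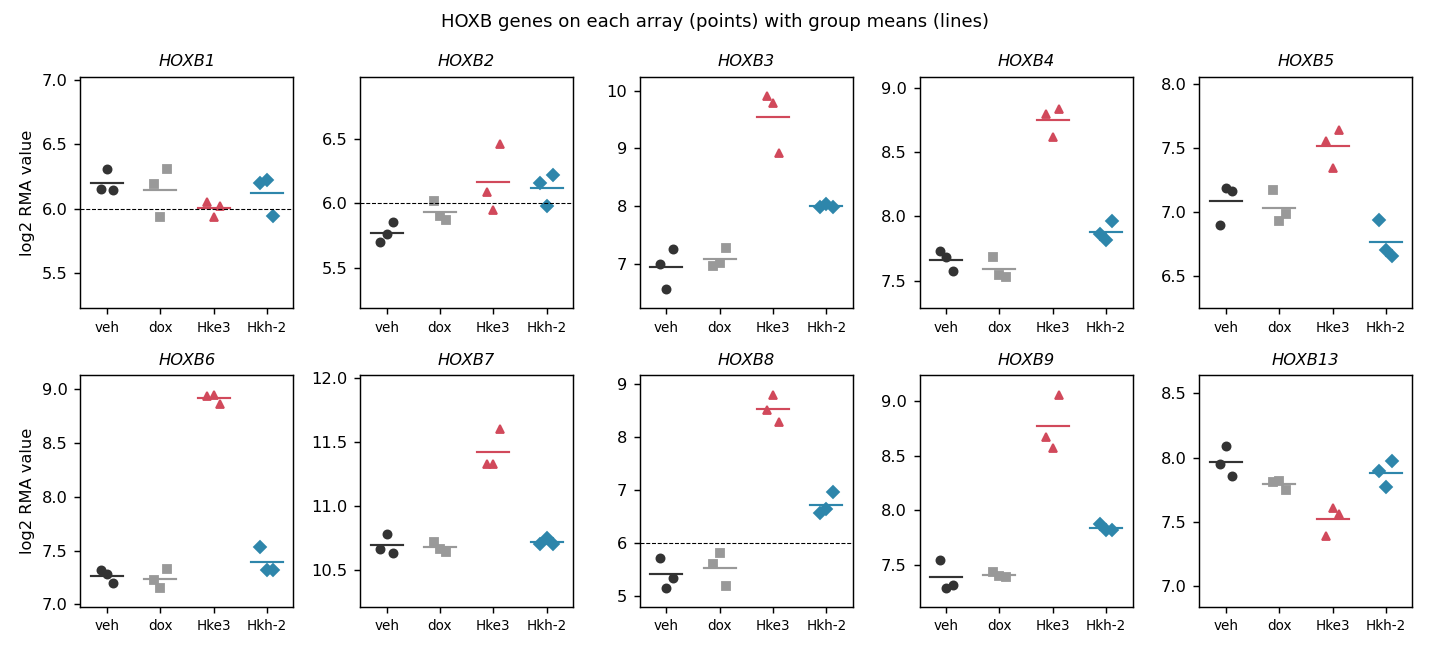
log2 value (vertical axes, each panel with its own range) of the 10 HOXB genes on each array (points), with group means (lines) and, where in range, the background level of 6 (dashed). In HOXB3, HOXB8 and HOXB9 the points rise from HCT116 to Hkh-2 to Hke3 without overlap, and in HOXB4, HOXB6 and HOXB7 the Hke3 points stand alone.

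Other probe sets of the same genes gave a mixed picture. Of the 44 HOX probe sets 23 were kept, and 16 of these were called against Hke3 in the fit over probe sets, where 46.5% of all were. All 3 probe sets of HOXB7 (differences of -1.0, -0.72 and -0.77), both of HOXB9 (-0.70 and -1.39) and both of HOXB5 (-0.43 and -0.37) were lower in HCT116. By contrast the second probe set of HOXB3 stayed between 5.61 and 6.04 on all 12 arrays, that of HOXB8 between 4.02 and 4.75, and that of HOXB6 between 4.70 and 5.78. These dim probe sets were under the filter, with means in vehicle and Hke3 of 5.77 and 5.87 for HOXB3, 4.24 and 4.57 for HOXB8, and 5.00 and 5.49 for HOXB6. Taken as the mean of a gene's probe sets, the difference from Hke3 was -1.35 for HOXB3 and -1.07 for HOXB6, and at least 0.55 in size for HOXB8 (means of 4.83 and 6.55), each still called. Several of the bright probe sets, among them those that represent HOXB5, HOXB6, HOXB7 and HOXB8, carry the suffix that Affymetrix gives to sets which may bind more than 1 transcript. Without such sets 6 HOX genes were called against Hke3 in place of 12, with fewer HOX genes tested, and 4531 of all genes in place of 6146. Of the genes called in the main fit, HOXB5, HOXB7, HOXC6 and HOXC13 have no probe set without such a suffix. HOXB6 and HOXB8 are left with the dim one alone, which is under the filter. These genes were thus not tested in that setting.

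Hkh-2 differed from HCT116 at fewer HOXB genes and by less. Of the 18 kept HOX genes 9 were called, 5 lower and 4 higher in HCT116, where 36.0% of all kept genes were called (21.7% lower and 14.3% higher), and without the filter 8 of 28 were, beside 22.9% of all genes. Over the HOXB cluster the median difference was -0.17, against -0.02 over all kept genes. HCT116 was lower than Hkh-2 by 1.32 ± 0.18 at HOXB8 (SE, adjusted p = 1.02e-04 by limma), which is at least 0.73, by 1.07 ± 0.22 at HOXB3 (SE, adjusted p = 0.00201) and by 0.45 ± 0.11 at HOXB9 (SE, adjusted p = 0.00648). HOXB2 was lower by 0.35 (adjusted p = 0.0321), at least 0.12, and that call was lost with the doxycycline arrays in place of vehicle (adjusted p = 0.228) and without vehicle replicate 1 or 2 or Hkh-2 replicate 1 or 3. HOXB9's second probe set did not pass (-0.09, adjusted p = 0.476 in the fit over probe sets). HOXB5 was higher in HCT116 than in Hkh-2 by 0.32 (adjusted p = 0.0422), with arrays that overlapped. Its second probe set did not pass (0.097, adjusted p = 0.563 in the fit over probe sets), and the call was lost in 14 of 25 alternative settings, also without each of vehicle replicates 2 and 3 and Hkh-2 replicates 2 and 3. HOXB4 missed the threshold (-0.22, 95% confidence interval -0.40 to -0.04, adjusted p = 0.0579) and passed it in 8 of 26 alternatives. The differences at HOXB6, HOXB7 and HOXB13 were -0.13 (interval -0.30 to 0.05), -0.03 (interval -0.21 to 0.15) and 0.09 (interval -0.10 to 0.27). The second HOXB13 probe set was lower in HCT116 than in Hkh-2 (-0.46, adjusted p = 0.00859 in the fit over probe sets), so the pair of probe sets for this gene differed.

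Set directly against each other, the recombined lines differed at most of the cluster. Hke3 was higher than Hkh-2 at 7 of the 10 HOXB genes and lower at HOXB13, and 10 of the 18 kept HOX genes were called, 9 of them higher in Hke3, where 39.8% of all kept genes were called and 16.3% were higher (10 of 28, beside 25.1%, without the filter). The differences were 1.80 ± 0.18 at HOXB8 (SE, adjusted p = 7.70e-06), 1.53 ± 0.22 at HOXB3 (SE, adjusted p = 1.38e-04) and 1.53 ± 0.08 at HOXB6 (SE, adjusted p = 1.22e-08). These 3 were past 1.5, where 1.10% of all kept genes were called and higher in Hke3 by as much. HOXB9, HOXB4, HOXB5 and HOXB7 differed by 0.93, 0.87, 0.74 and 0.70, and HOXB13 by -0.36, all called. HOXB1 (-0.12, 95% confidence interval -0.34 to 0.11) and HOXB2 (0.05, interval -0.21 to 0.30) did not pass. HOXB2, HOXB3, HOXB8, HOXB9 and HOXD8 were called lower in HCT116 than in each of the lines, as were 12.6% of all kept genes, and HOXC13 was called higher than in both, as were 9.04%. These 2 comparisons share the vehicle arrays. HOXB3, HOXB8 and HOXB9 were in addition called lower in Hkh-2 than in Hke3, an order shown by 3.05% of all kept genes.

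Genes on both sides of the HOXB cluster were read in RefSeq order along chromosome 17. This view and its limits of 8 measured genes on each side were chosen after the HOXB values had been seen. The gene next but one to HOXB1 among those measured was SKAP1, which encodes an adaptor of T cell receptor signalling. It read 5.83, 5.93 and 5.85 for vehicle, 7.0, 7.04 and 7.41 for Hke3, and 6.50, 6.31 and 6.33 for Hkh-2. Its groups did not overlap and lay in the same order as those of HOXB3, HOXB8 and HOXB9. The differences were -1.28 from Hke3 (at least 1.15, adjusted p = 2.08e-06 by limma) and -0.51 from Hkh-2 (at least 0.38, adjusted p = 0.00448). The next gene outwards, SNX11, a sorting nexin, differed by -0.36 and -0.30 (adjusted p = 0.00582 and 0.0191). PRR15L, the farthest shown, was higher in Hkh-2 by at least 2.61, and near background in HCT116 and Hke3. Of the 12 flanking genes kept of 16, Hke3 passed the test as higher than HCT116 at 4 and as lower at 1 (41.7%, beside 47.8% of all kept genes), and Hkh-2 likewise at 4 and 1 (beside 36.0%). The share called on the flanks against Hke3 was thus not above the background, and PRR15L, counted among those higher in Hke3, had means of 5.34 and 5.95, both near background. On the far side of HOXB13, CALCOCO2 was higher in HCT116 than in Hke3 (0.42, adjusted p = 0.00199 by limma) and ATP5MC1 lower (-0.24, adjusted p = 0.0287). Against Hkh-2, ATP5MC1 went the other way, higher in HCT116 (0.42, adjusted p = 0.00118), and CALCOCO2 did not pass (0.16, adjusted p = 0.187).

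Within the cluster, HOXB-AS1, HOXB-AS3, LINC02086 and PRAC1 were near background in all groups. The probe set annotated to MIR10A, which would bind a long precursor transcript and not the mature miRNA printed above, read 5.20, 5.44 and 5.29 for vehicle, 5.86, 5.92 and 5.94 for Hke3 and 5.46, 5.37 and 4.93 for Hkh-2. It was higher on all Hke3 arrays than on any other array shown but stayed under the background level, so the filter removed it from the main fit.

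**Figure D3:**
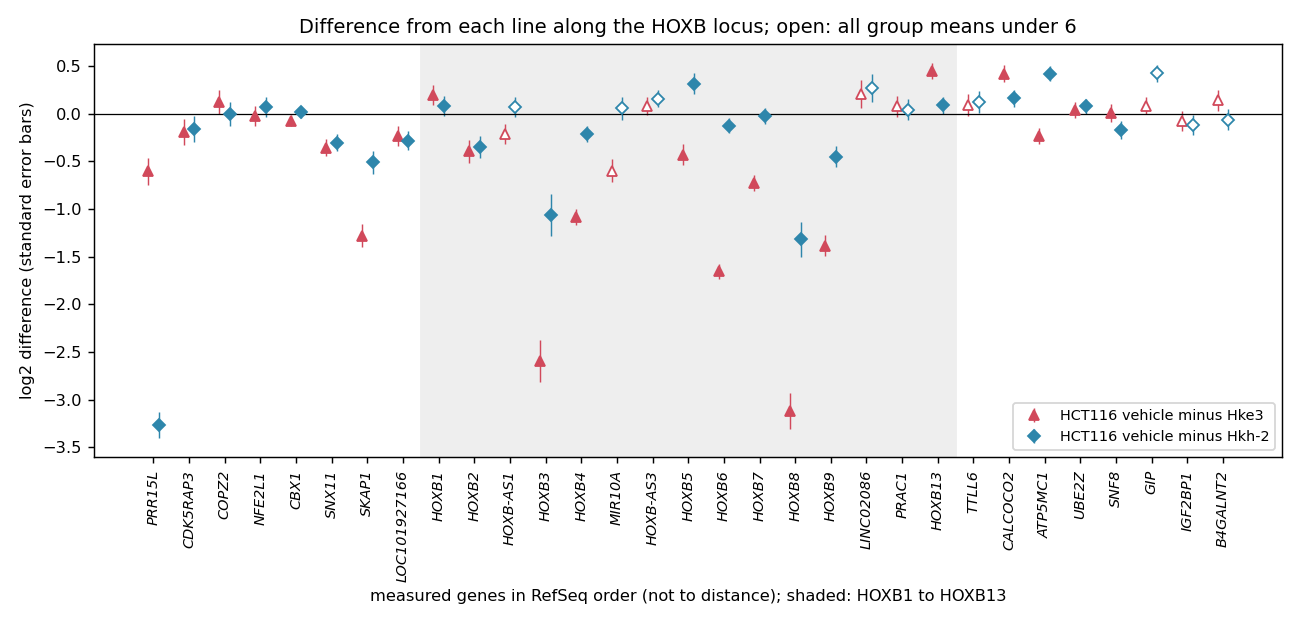
log2 difference of HCT116 vehicle from Hke3 (triangles) and from Hkh-2 (diamonds), with standard errors, for measured genes in RefSeq order from PRR15L to B4GALNT2, the span from HOXB1 to HOXB13 shaded and genes near background open. Negative values mean lower in HCT116; HOXB8 at -3.12 (at least 2.53 in size) and HOXB3 at -2.60 are the lowest against Hke3, SKAP1 at -1.28 is the lowest outside the shaded span against Hke3, and PRR15L at -3.27 (at least 2.61 in size) is the lowest against Hkh-2.

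The HOXC cluster had few calls against Hke3, while against Hkh-2 its share of calls was not below that of all genes. Of its 9 genes, 7 of them kept, 2 were called against Hke3, 1 in each direction, beside 31.7% of all genes without the filter and 47.8% of those kept. Against Hkh-2 3 were called, all higher in HCT116, beside 22.9% and 36.0%. HOXC6, the highest HOXC probe set by mean, read 8.11, 8.27 and 8.12 for vehicle, 8.23, 8.34 and 8.08 for doxycycline, 8.52, 8.54 and 8.96 for Hke3, and 8.35, 8.24 and 8.22 for Hkh-2. Its Hke3 arrays were above all others. HCT116 was lower than Hke3 by 0.51 ± 0.11 (SE, adjusted p = 0.00268 by limma), and Hke3 exceeded Hkh-2 by 0.41 (adjusted p = 0.0126).

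HOXC13, a regulator of hair and nail keratins, had the opposite sign and was shared by both lines. It read 6.95, 7.27 and 6.98 for vehicle, 6.88, 6.98 and 6.98 for doxycycline, 6.34, 6.48 and 6.73 for Hke3, and 6.49, 6.15 and 6.58 for Hkh-2. All 6 HCT116 arrays were above all 6 arrays of the derived lines. HCT116 was higher than Hke3 by 0.55 ± 0.13 (SE, adjusted p = 0.00368 by limma) and higher than Hkh-2 by 0.65 ± 0.13 (SE, adjusted p = 0.00144).

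HOXC5 was lower in Hkh-2 alone. It read 7.45, 7.48 and 7.51 for vehicle, 7.52, 7.71 and 7.57 for doxycycline, 7.32, 7.37 and 7.61 for Hke3, and 6.59, 6.96 and 6.89 for Hkh-2. The Hkh-2 arrays were below all others, by 0.67 ± 0.11 from HCT116 (SE, adjusted p = 2.72e-04 by limma) and by 0.62 ± 0.11 from Hke3 (SE, adjusted p = 5.05e-04), while HCT116 and Hke3 overlapped. HOXC9, a thoracic and motor neuron factor, read 7.61, 7.49 and 7.72 for vehicle, 7.59, 7.55 and 7.59 for doxycycline, 7.53, 7.38 and 7.38 for Hke3, and 7.34, 7.28 and 7.38 for Hkh-2. It was higher in HCT116 than in Hkh-2 by 0.27 ± 0.08 (SE, adjusted p = 0.0139 by limma), a call lost without vehicle replicate 3 (adjusted p = 0.0643) or Hkh-2 replicate 2 (adjusted p = 0.0575), and it missed the threshold against Hke3 (adjusted p = 0.0780). HOXC4, HOXC10 and HOXC11 were not called in any comparison, with differences between the lines of -0.30 to 0.13.

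HOXD8, which acts in the trunk and in lymphatic vessels, was the single HOXD gene above background. It read 6.76, 6.19 and 6.84 for vehicle, 6.73, 6.79 and 6.72 for doxycycline, 7.43, 7.55 and 7.16 for Hke3, and 7.0, 7.06 and 6.95 for Hkh-2. All arrays of both lines were above those of HCT116, and 1 vehicle array (replicate 2) was well below the other two. HCT116 was lower than Hke3 by 0.78 ± 0.14 (SE, adjusted p = 7.01e-04 by limma) and lower than Hkh-2 by 0.41 ± 0.14 (SE, adjusted p = 0.0433). The second call was lost in 12 alternative settings: without vehicle replicate 2 the difference from Hkh-2 was -0.20 (adjusted p = 0.138), with the doxycycline arrays in place of vehicle it was -0.26 (adjusted p = 0.190), and it was also lost without each of the 3 Hkh-2 arrays. Against Hkh-2, Hke3 was higher by 0.38 (95% confidence interval 0.06 to 0.69, adjusted p = 0.0545), and that difference was called without Hke3 replicate 3 (0.48, adjusted p = 0.0172) and without vehicle replicate 2 or 3.

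**Figure D4:**
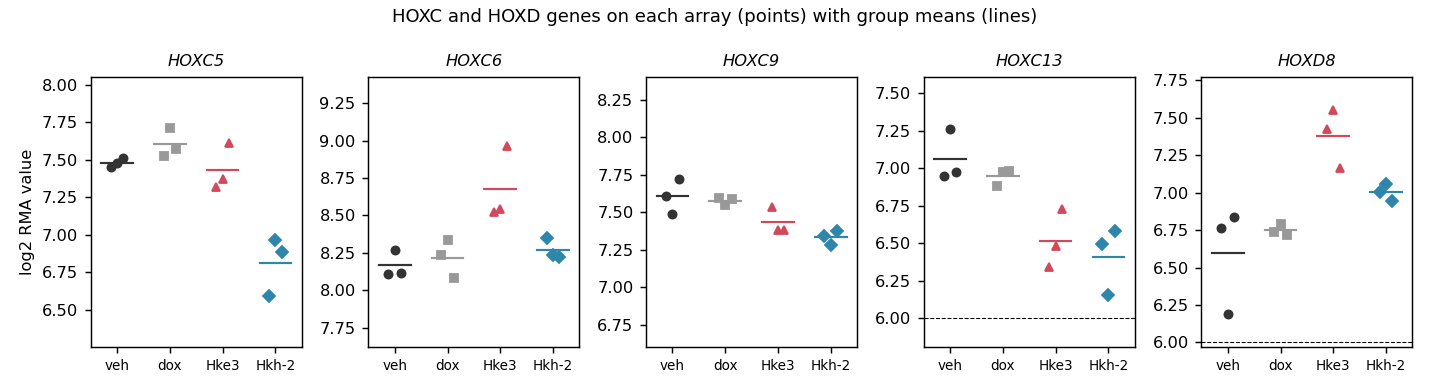
log2 value (vertical axes, each panel with its own range) of HOXC5, HOXC6, HOXC9, HOXC13 and HOXD8 on each array (points), with group means (lines). HOXC13 is higher on the 6 HCT116 arrays than on those of the lines, HOXC5 is lower in Hkh-2, HOXC6 is higher in Hke3, and HOXD8 is lower in HCT116, with vehicle replicate 2 at 6.19.

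Doxycycline moved no HOX gene past the threshold. The comparison asks whether doxycycline changes these transcripts in control cells. If these cells carry an inducible vector, effects of the inducer and of what it induces cannot be told apart. None of the 18 kept HOX genes and none of the 12852 kept genes was called by limma (percent called 0), and at an unadjusted p of 0.05 the counts were 0 and 127. Without the filter 1 of 28 HOX genes was under that unadjusted value, beside 472 of 19775 genes. Both counts over all genes are under the share of 0.05 that would be met on average where nothing differs. The test may thus be strict here, and the lack of calls does not show that doxycycline has no effect. Over the 16 kept HOX genes not near background in both groups, the differences ran from -0.17 at HOXB13 to 0.15 at HOXD8. At HOXB3 the difference was 0.15 (95% confidence interval -0.33 to 0.62). HOXB2 (means of 5.77 and 5.93) and HOXB8 (5.42 and 5.54) were near background with vehicle and with doxycycline, so no difference is given for them.

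The cofactors and regulators of HOX genes were listed by function, and the counts are of genes that passed the test. Of 7 TALE cofactors kept, Hke3 exceeded HCT116 at 1 and was below it at 2 (42.9%, beside 47.8% of all kept genes). PBX3, a partner in HOX binding, was the one higher in Hke3. It read 6.69, 6.78 and 6.70 for vehicle, 8.20, 8.04 and 7.97 for Hke3, and 7.48, 7.53 and 7.20 for Hkh-2, without overlap and in the order seen for HOXB3. HCT116 differed by -1.35 ± 0.10 from Hke3 (SE, adjusted p = 1.84e-07 by limma) and by -0.68 ± 0.10 from Hkh-2 (SE, adjusted p = 1.09e-04). PBX2 and PBX4 were higher in HCT116 than in Hke3 by 0.54 and 0.39 (adjusted p = 0.00540 and 0.0113). MEIS2 did not differ detectably from either line (0.03 and -0.12, adjusted p = 0.827 and 0.357), and MEIS1 was near background.

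Polycomb genes split in direction: HCT116 exceeded Hke3 at 6 of 23 and was below it at 4 (43.5%, no more than the 47.8% of all kept genes), with a median of 0.14, beside 0.04 over all kept genes. PCGF5, a subunit of a variant Polycomb complex, was less abundant in HCT116 than in either line (-0.83 and -0.50, adjusted p = 1.28e-06 and 1.38e-04), and CBX7, a reader of the repressive histone mark, was higher than in both (0.49 and 0.31, adjusted p = 9.01e-04 and 0.0197). PCGF2 was higher in HCT116 than in Hkh-2 (0.53, adjusted p = 9.52e-04), and PHC2 was higher in HCT116 than in Hke3 (0.42, adjusted p = 0.0110). EZH2, the methyltransferase of the complex, did not pass against either line (adjusted p = 0.229 and 0.618). Of 18 Trithorax and demethylase genes HCT116 exceeded Hke3 at 5 and was below it at 4 (50%, near the 47.8% of all kept genes), led by MEN1 (0.78, adjusted p = 0.00188), a partner of the KMT2A methyltransferase, and MLLT3 (-0.64, adjusted p = 7.12e-04), a reader of histone acylation in elongation complexes. MLLT1, its paralog, and KAT7, a histone acetyltransferase, were higher in HCT116 than in Hke3 by 0.36 and 0.58 (adjusted p = 0.0293 and 2.11e-05). Of 5 caudal and ParaHox genes kept 2 were called (40%): the HOX activator CDX2 (0.44, adjusted p = 0.0109) and MNX1 (0.53, adjusted p = 3.21e-04) were higher in HCT116 than in Hke3.

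Of 14 retinoid signalling genes kept, 9 were called against Hke3 (64.3%, beside 47.8% of all kept genes), 5 higher and 4 lower in HCT116, with a median of 0.09. RARB, a retinoic acid receptor that is itself a retinoid target, read 5.13, 5.02 and 5.15 for vehicle, 7.20, 7.35 and 6.84 for Hke3, and 5.40, 5.21 and 5.25 for Hkh-2. It was above background in Hke3 alone, higher there than in HCT116 by at least 1.13 (adjusted p = 2.43e-08 by limma). RDH10, which makes retinal from retinol, was higher in HCT116 than in Hke3 (1.57, adjusted p = 4.32e-08), and CYP26A1, which degrades retinoic acid and is induced by it, was higher than in both lines (0.64 and 1.26, adjusted p = 2.40e-04 and 6.95e-07). CRABP2, a carrier of retinoic acid, was lower in HCT116 than in Hke3 (-0.73, adjusted p = 4.65e-05) and higher than in Hkh-2 (1.13, adjusted p = 1.09e-06). Of 14 measured noncoding RNA and neighbouring genes of the clusters 4 were kept: SKAP1, HOXA-AS2, HOTTIP and HOXD-AS2. HOXA-AS2 was higher in HCT116 than in Hke3 by 0.26 (adjusted p = 0.0361 by limma). Against Hkh-2 it was higher by 0.42, at least 0.29 (adjusted p = 0.00320). Neither HOTTIP nor HOXD-AS2 was called. HOTAIR was near background.

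**Figure D5:**
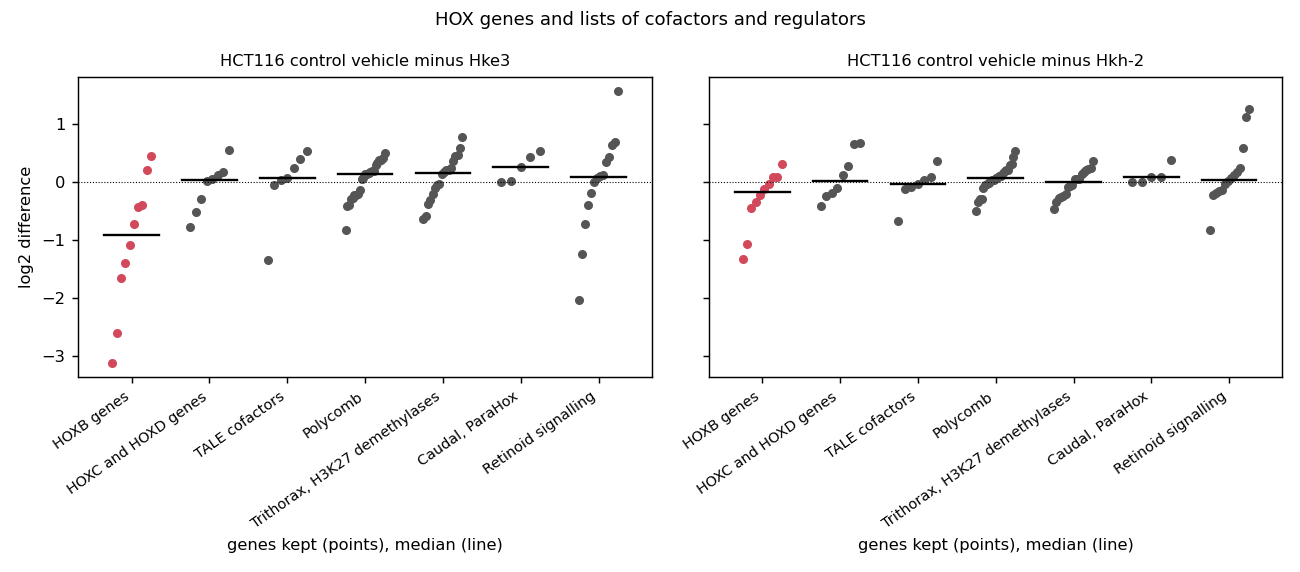
log2 difference of HCT116 vehicle from Hke3 (left) and from Hkh-2 (right) for each kept gene (points) of the HOX genes and of the lists of cofactors and regulators, with the median of each as a line. The HOXB median lies at -0.91 on the left and -0.17 on the right, the medians of the lists on the left lie between 0.07 and 0.25, and RARB and RDH10 are the lowest and highest retinoid points on the left.

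Measures of the whole arrays were close. Array medians ran from 5.80 to 5.86 and correlations within groups from 0.993 to 0.998. Epithelial markers were present, with 9 of 12 colon markers kept and EPCAM, KRT8, KRT18 and KRT19 at group means of 12.6 or more, while CDH17, GPA33 and LGR5 were near background. The summed level of that list ran from 15.4 to 15.5 on the vehicle arrays, 15.5 to 15.7 in Hke3 and 15.9 in Hkh-2, and KRT20, a marker of differentiated colon cells, was higher in Hkh-2 than in HCT116 (difference -2.22, adjusted p = 1.25e-08). Of markers of other cells, 3 of 6 measured leukocyte, 2 of 6 endothelial and 5 of 10 fibroblast genes were kept, while PTPRC, CDH5, KDR, LUM and FAP were near background in every group. The kept ones included CD53 (group means from 6.52), PECAM1 (from 6.56), COL1A1 (from 8.19) and ACTA2 (from 8.03). None of the leukocyte and fibroblast genes was called against Hke3, and both kept endothelial genes were higher in HCT116 than in each line: PECAM1 by 0.24 and 0.29, and VWF, at 6.35 in HCT116 and near background in the lines, by at least 0.35. COL3A1 was above background in Hkh-2 alone (6.73). The part of these markers in the HOX differences was not tested. The 5' minus 3' level of the actin control probe sets, a sign of RNA length, ran from -0.85 to -0.48 on vehicle arrays, from -0.58 to -0.23 in Hke3 and from -0.32 to -0.23 in Hkh-2, so it moved with the groups and its part in the HOX differences was not tested. That of GAPDH overlapped between the groups, at -0.030 to 0.091 on vehicle arrays, 0.0016 to 0.114 for Hke3 and -0.033 to 0.015 for Hkh-2. HCT116 vehicle replicate 2 and Hke3 replicate 3 departed from their groups together (correlation of their deviations 0.683), and without both arrays the HOX counts were 13 and 11 against Hke3 and Hkh-2, while those over all kept genes rose to 6997 and 6120 from 6146 and 4627.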

How the data were processed

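RNA of 12 samples (labelled with biotin per the labels) was hybridised to Affymetrix U133 Plus 2.0 arrays. The authors processed the scans with RMA, and the deposited values are log2 intensities per probe set. The RMA version, the chip definition and whether all arrays were normalised together are not given in the sources used here. Arrays of RAS knockdown cells were not analysed here.

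Of 54675 probe sets, 41097 carry 1 gene symbol in the platform annotation, 1801 several and 11777 none, and those with 1 symbol were used. Each of 19775 genes was taken as its probe set with the highest mean over all arrays, and 12852 with at least 1 group mean of 6 or more were kept. limma 3.58.1 in R 4.3.3 (lmFit, contrasts.fit, eBayes) was fitted over the 4 groups of 3, with Benjamini-Hochberg adjustment over all genes kept and a threshold of 0.05. A separate fit over probe sets and a fit without the filter were read for the members. The fit was tested on simulated data. Precision is limited by how many arrays there are, and 3 against 3 arrays permute to a two-sided p of 0.1 at the lowest.

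The members and lists were chosen with earlier results of these data known. Members called in a comparison of the lines, and the brightest of each cluster, are given on every array, and of each list up to 4 genes, those called with the largest change. The EZH2, MEIS1, MEIS2 and HOTAIR values were named after they were seen. A difference from a group mean under 6 is also given as a bound against 6. Replicate numbers were checked for pairing: vehicle and doxycycline arrays of the same number deviated together (r = 0.228, 0.212 and 0.453). Vehicle and Hkh-2 arrays of the same number gave -0.046, 0.422 and 0.337, and vehicle and Hke3 arrays gave 0.355, -0.578 and -0.580. These values do not settle whether arrays of the same number were paired, and no label gives a pairing. Alternatives were other probe set rules, filters, normalisations, fits, left-out arrays and control arrays. Promoter and miRNA sequences are from RefSeq on GRCh38.p14.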

Additional observations from a re-analysis of the deposited data

Results flagged for a closer look

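The difference from HCT116 vehicle was not the same in Hke3 and in Hkh-2 at 10 HOX genes, by the test of Hke3 against Hkh-2 itself (limma, adjusted over all kept genes). Hke3 minus Hkh-2 came to 1.80 at HOXB8, 1.53 at HOXB3, 1.53 at HOXB6, 0.93 at HOXB9, 0.87 at HOXB4, 0.74 at HOXB5 and 0.70 at HOXB7. At HOXB13 it was -0.36. Outside the HOXB cluster it was 0.62 at HOXC5 and 0.41 at HOXC6. The calls at these 10 genes held without the pair of arrays that stood apart, with values of 1.93 at HOXB8, 1.84 at HOXB3 and 0.26 at HOXC6.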

How the results depend on the processing

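No named HOX difference that was called changed its direction under any alternative run, and of the recomputed values 1321 kept their side of the threshold, 37 lost it and 18 gained it. The weak calls were HOXB5, HOXD8, HOXB2 and HOXC9 against Hkh-2, HOXB2 and HOXB13 against Hke3. Without probe sets that may bind several transcripts, 6 HOX genes were called against Hke3 and 5 between Hke3 and Hkh-2, in place of 12 and 10. Fewer HOX genes were tested: HOXB5, HOXB6, HOXB7, HOXB8, HOXC6 and HOXC13 had no other probe set above the filter. Over all genes the counts in that setting were 4531 and 3733, in place of 6146 and 5118. With a difference over 1.5 required in addition, 316, 286 and 230 genes, and 3, 0 and 3 HOX genes, were called against Hke3, against Hkh-2 and between the lines. With a background level of 5, 4 HOX genes were near background in place of 10. Leaving out 1 array at a time gave 5003 to 7121 genes and 12 to 14 HOX genes against Hke3, 3714 to 5422 genes and 6 to 10 HOX genes against Hkh-2 (6 without Hkh-2 replicate 2), 3864 to 6401 genes and 10 to 12 HOX genes between the lines, and 0 for doxycycline. With the replicate number as a block, 5885, 4447 and 4871 genes and 12, 7 and 10 HOX genes were called in those 3 comparisons and 0 for doxycycline. The HOXB5 (adjusted p = 0.0603) and HOXD8 (adjusted p = 0.0680) calls against Hkh-2 were lost with this block, and it changed no other call at a named HOX gene. The doxycycline arrays in place of vehicle, a choice made after seeing the data, gave 11 and 7 HOX genes against Hke3 and Hkh-2, beside 5811 and 4734 of all kept genes.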
